A study of Mus musculus with 51 samples.

Results

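Stroma of 2 fetal liver lines was compared after growth with blood progenitors. The comparison rests on the arrays titled AFT024+KLS, 3 in number, and BFC012+KLS, also 3, which makes 6 of the 51 arrays of the series. AFT024 is a stromal clone labelled as supporting hematopoietic stem and progenitor cells, and BFC012 is a clone labelled as non-supportive. Both come from C57BL/6 fetal liver at embryonic day 14.5. Each line is 1 clone, so the effect of support and any other difference between the clones cannot be told apart. KLS cells are c-Kit+Sca1+Lin- cells of the bone marrow, a fraction enriched for stem and progenitor cells. Stroma of both lines was kept with KLS cells for 4 days and was then purified by sorting cells that lacked CD45, the surface protein of blood cells. The same lines sorted after 4 days without KLS cells (AFT024-KLS and BFC012-KLS, 3 arrays each) and confluent cultures of the lines (3 arrays each) served for comparison. The series as a whole asked which genes distinguish stroma that maintains stem cells from stroma that does not.

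Stromal cells of the fetal liver feed the expanding pool of blood stem cells through secreted factors, membrane-bound ligands, adhesion molecules and extracellular matrix. Stem cell factor (Kitl) and the chemokine Cxcl12 are the best known of these signals, the first acting on the receptor c-Kit and the second holding stem cells near the stroma. Blood cells signal back to stroma, and inflammatory signals from them make stromal cells release acute-phase proteins and chemokines.

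The values are log2 signals of a microarray, so a difference of 1 is 2-fold. Levels of different genes are not comparable on this scale. Over the 12 sorted arrays the median gene lay at 5.85 and the first quartile at 4.63, which gives a rough idea of background. In 19 of the genes named here that passed between the lines in co-culture, the lower line averaged below this quartile. These include 9 of the 24 largest differences, and the size of such measured differences is uncertain. Set against the quartile they are smaller, at -1.10 against the measured -2.29 for Lum, and Il7 lay below it in both lines. The 7 stromal markers averaged 7.68 to 7.84 in the AFT024+KLS arrays and 7.34 to 7.40 in the BFC012+KLS arrays. The CD45 gene Ptprc was near background, with 4.41, 4.29 and 4.44 in AFT024+KLS and 4.38, 4.23 and 4.44 in BFC012+KLS. The 9 leukocyte and progenitor markers averaged 4.95 to 5.01 in AFT024+KLS and 4.88 to 5.01 in BFC012+KLS, and the 9 myeloid markers 4.54 to 5.09 in AFT024+KLS and 4.57 to 4.92 in BFC012+KLS. In the group means of these 18 blood markers only Cd34, which stroma can also express, lay above the array median. In AFT024+KLS replicate 3 the myeloid genes S100a9 (6.34) and Tyrobp (5.93) lay above it as well, against 4.39 and 4.24 for S100a9 and 5.52 and 5.46 for Tyrobp in replicates 1 and 2.

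AFT024+KLS replicate 1 stood apart from its group. It correlated at 0.976 and 0.977 with replicates 2 and 3, which correlated at 0.994 with each other. In replicate 1, 507 genes lay at least 2-fold from the mean of the other arrays of its group, 197 above and 310 below, against 9 to 157 genes in the other co-culture arrays. Of 215 genes that separated the lines at least 4-fold in confluent culture and at least 2-fold between the other co-culture arrays, 143 (66.5%) lay nearer AFT024 than BFC012 in this array. In the other co-culture arrays 98.9% to 100% lay nearer their own line. Counts of genes without replicate 1 are therefore given for some of the lists that it moved. The bar plot of genes passing by list gives them for the lists it shows. Antigen presentation, not described further, had 0 of 24 genes passing with replicate 1, and 3 higher and 1 lower without it. Among the arrays without KLS cells, replicate 1 of each line stood apart as well, with 616 genes off in AFT024-KLS and 798 in BFC012-KLS, against 74 to 98 in the others. Whether replicates came from separate cultures is not labelled, and the p-values reflect the variation among these arrays, which may be technical.

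In the presence of KLS cells, genes of matrix, fat storage, lysosomes and glycolysis that passed the test were mostly higher in AFT024+KLS, whereas acute-phase, mesothelial and Hoxa genes that passed were mostly lower. Without KLS cells 6 of 32 collagen, 5 of 34 adipocyte and 6 of 26 lysosomal genes were higher and 0 lower. Proteoglycans had 6 higher and 2 lower of 68, basement membrane 3 and 1 of 27, and matrix proteases 2 and 6 of 41. Glycolysis had 5 and 3 of 38, acute-phase 1 and 0 of 34, mesothelial 0 and 10 of 35 and Hoxa 0 and 9 of 10. Over all genes 3.51% were higher and 3.81% lower there. The counts and values of each group with KLS cells follow. Of 19938 genes tested, 2314 (11.6%) passed at an adjusted p under 0.05 (limma, Benjamini-Hochberg adjustment over all genes), 1214 (6.09%) higher and 1100 (5.52%) lower in AFT024+KLS. At least 2-fold differences made up 620 of them (3.11%), 399 higher and 221 lower. Without AFT024+KLS replicate 1, 2732 genes passed (13.7%), 1495 higher (7.5%) and 1237 lower (6.2%), and 1971 of the 2314 were among them in the same direction. The count was 1502 without AFT024+KLS replicate 2, 1535 without AFT024+KLS replicate 3, 1381 without BFC012+KLS replicate 1 and 1542 without BFC012+KLS replicate 3. The median difference over all genes was -0.03, and the 3 arrays of one line lay entirely above those of the other in 32.1% of genes. In bulk samples such as these, fewer cells of a type and less RNA per cell cannot be told apart.

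The genes with the largest differences were taken from those whose arrays did not overlap between the lines, so their separation is part of the choice. The 12 largest positive differences included genes of the X chromosome, imprinted genes and genes of fat-storing stroma. Xist, the noncoding RNA that coats an inactive X chromosome, measured 9.97, 10.45 and 10.14 in AFT024+KLS, against 3.83, 4.11 and 3.98 in BFC012+KLS. BFC012+KLS was below the first quartile, so the measured difference of 6.21 (SE 0.22, adjusted p = 1.17e-07) is uncertain in size. Set against the quartile, Xist was higher by at least 5.55. The lymphocyte-regulated X-linked gene Xlr had 6.29, 9.60 and 9.63 in AFT024+KLS and 3.31, 2.87 and 2.59 in BFC012+KLS. Replicate 1 was the low array of AFT024, and the measured difference was 5.59 with it and 6.70 without it, at least 3.88 against the quartile with all arrays. The glutamate receptor subunit gene Gria3, also on the X chromosome, was higher by 5.49 as measured (SE 0.86) and by at least 4.58 against the quartile.

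The amino acid transporter gene Slc38a4, which is imprinted, had 10.10, 10.17 and 9.97 in AFT024+KLS, against 4.65, 4.41 and 4.63 in BFC012+KLS. Its measured difference was 5.52 (SE 0.12, adjusted p = 1.65e-09), and at least 5.45 against the quartile, since BFC012+KLS averaged below it. The neighbouring imprinted genes Peg10, a retrotransposon-derived gene with 10.12, 10.16 and 9.74 in AFT024+KLS and 4.90, 5.02 and 5.11 in BFC012+KLS, and Sgce (4.14, SE 0.29), a sarcoglycan, were higher as well. Postn, a matrix protein that binds integrins, had 11.52, 10.45 and 10.49 in AFT024+KLS and 5.06, 6.19 and 7.04 in BFC012+KLS (difference 4.72, SE 1.04, adjusted p = 0.0138). The BFC012+KLS arrays spread over more than 1 unit for Postn. The remaining 5 of the 12 were the transcription factor Ebf1 (4.71), lipoprotein lipase Lpl (4.55), Brinp3 (4.13), the adhesion glycoprotein Emb (4.00) and Tmem45a (3.75). Brinp3 was at 6.34 in AFT024+KLS replicate 1, nearer the 4.70, 4.68 and 4.61 of BFC012+KLS than the 10.06 and 9.99 of its own group.

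The largest negative differences included secreted proteins of the acute-phase response and adhesion genes. Serum amyloid A3 (Saa3), an acute-phase protein made outside the liver in mice, had 4.79, 6.11 and 5.82 in AFT024+KLS and 11.52, 11.66 and 11.43 in BFC012+KLS. That is a 62.5-fold lower signal in AFT024+KLS (log2 difference -5.97, SE 0.56, adjusted p = 8.27e-05). The latrophilin Adgrl2, an adhesion receptor, had 5.57, 4.77 and 4.83 in AFT024+KLS and 10.03, 10.21 and 10.32 in BFC012+KLS, a difference of -5.13 (SE 0.40). Teneurin Tenm3 belongs to the family of latrophilin ligands and differed in the same direction, by -4.20 (SE 0.20), with 5.20, 5.05 and 4.90 in AFT024+KLS and 9.33, 9.18 and 9.23 in BFC012+KLS. Decorin (Dcn), a small proteoglycan that binds collagen and growth factors, had 6.46, 6.40 and 5.51 in AFT024+KLS and 10.19, 10.80 and 11.30 in BFC012+KLS, a difference of -4.64 (SE 0.89). Its level spread over more than 1 unit in BFC012+KLS.

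The metalloprotease inhibitor Timp4 (-4.23), the cardiac and mesodermal factor Tbx20 (-3.91), the tetraspanin Tspan8 (-3.71), the transcriptional coactivator Eya4 (-3.65), the drug-metabolising enzyme Fmo1 (-3.35), the chromatin remodeller Smarca1 (-3.33), the membrane glycoprotein Gpm6a (-3.28) and lipocalin 2 (Lcn2, -3.09) completed the 12. Smarca1 was the one of these with the widest spread in AFT024+KLS, at 6.14, 4.47 and 3.87, against 7.75, 8.52 and 8.20 in BFC012+KLS. In BFC012+KLS, Tspan8 (6.65, 8.54 and 9.12) and Gpm6a (7.12, 7.85 and 8.87) spread widely too. All 24 genes named so far passed with all arrays and without AFT024+KLS replicate 1, though Postn did not pass without BFC012+KLS replicate 1.

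**Figure D1:**
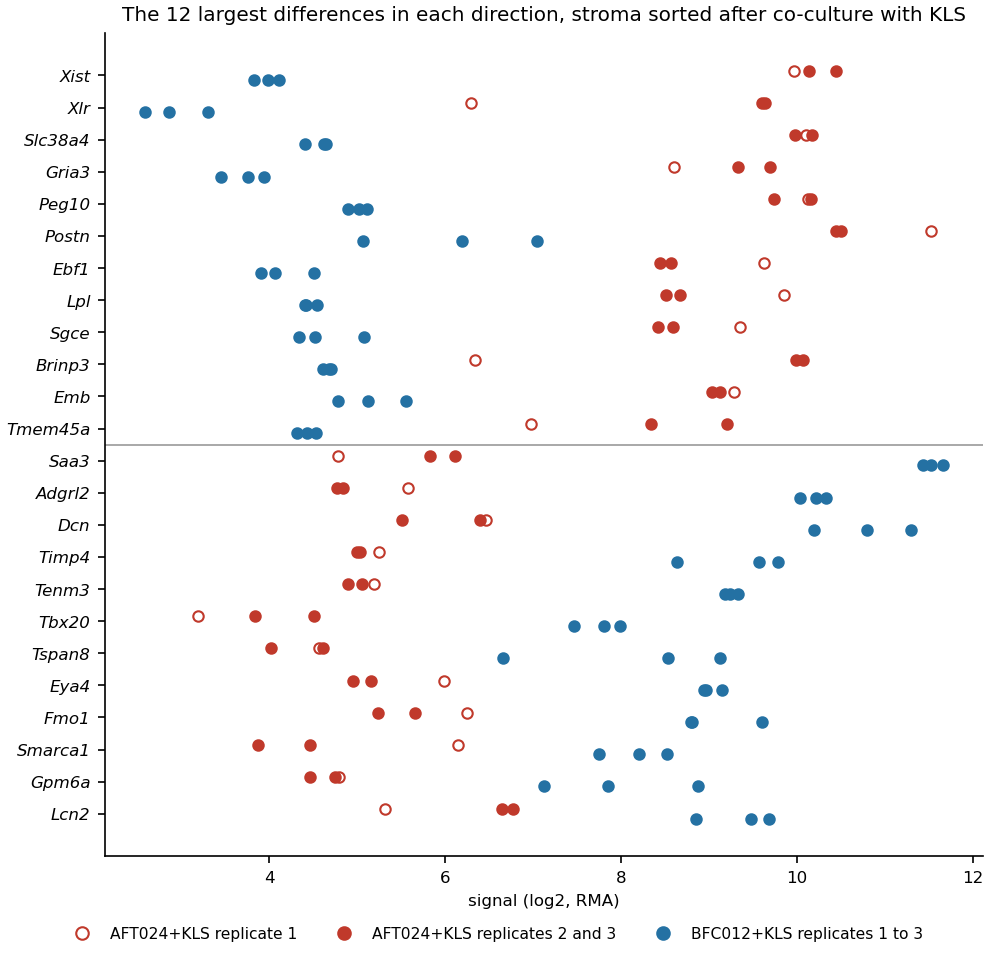
Log2 signal (x axis) of the 12 genes with the largest positive (upper block) and the 12 with the largest negative (lower block) difference of AFT024+KLS minus BFC012+KLS. Each point is 1 array, red for AFT024+KLS (replicate 1 open) and blue for BFC012+KLS. Genes were chosen so that the arrays of the lines do not overlap, and replicate 1 falls toward BFC012+KLS at Xlr and Brinp3.

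The secreted and surface signals to blood stem cells did not move together. Of 44 measured niche ligands 6 were higher, 4 lower and 34 did not pass, with a median difference of 0.04. Over all genes 6.09% were higher and 5.52% lower, with a median of -0.03. Without replicate 1 the counts were 8 and 4. After Postn the largest positive member was Dlk1, a delta-like surface protein of fetal liver progenitors, with 7.51, 9.18 and 8.41 in AFT024+KLS and 6.48, 6.29 and 6.12 in BFC012+KLS. Replicate 1 had the lowest Dlk1 of its group, yet all AFT024+KLS arrays lay above BFC012+KLS (difference 2.07, adjusted p = 0.00262). The lymphangiogenic factor Vegfc (1.71), the intermediate filament nestin (Nes, 1.44), the secreted Wnt inhibitor Sfrp1 (0.75) and the lymphoid cytokine Il7 (0.59) were higher too, although Il7 stayed below the first quartile in every array.

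Cxcl12 was lower in the supportive line. It had 8.01, 8.86 and 8.44 in AFT024+KLS and 10.09, 9.94 and 9.58 in BFC012+KLS, a difference of -1.43 (SE 0.36, adjusted p = 0.0239). Without replicate 1 the difference was -1.22 and no longer passed (adjusted p = 0.0647). The morphogen Bmp4 was lower (difference -1.86, adjusted p = 0.00677), with 6.27, 8.12 and 7.47 in AFT024+KLS and 9.52, 8.94 and 8.98 in BFC012+KLS, and replicate 1 was the lowest array. The adhesion molecules Vcam1 (-1.22), a ligand of the integrin VLA-4 on blood progenitors, and N-cadherin (Cdh2, -0.59) were lower as well.

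Kitl had 9.34, 8.39 and 8.38 in AFT024+KLS and 9.89, 9.76 and 9.59 in BFC012+KLS. All AFT024+KLS arrays lay below all BFC012+KLS arrays, but the difference of -1.04 (SE 0.34) did not pass (adjusted p = 0.0781). Without replicate 1, the AFT024+KLS array with the highest Kitl, it was -1.36 and passed (adjusted p = 0.0221). In the confluent cultures the difference ran the other way, at 1.60 (adjusted p = 0.00104), and without KLS cells it was 0.29 (adjusted p = 0.696). The heparin-binding growth factor pleiotrophin (Ptn) had 10.89, 10.75 and 10.52 in AFT024+KLS and 9.65, 9.17 and 9.03 in BFC012+KLS and did not pass (difference 1.44, adjusted p = 0.118).

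Growth factor systems differed member by member. Of 21 genes of the insulin-like growth factor system 5 were higher and 4 lower, median -0.07. Igfbp7, a secreted protein of the binding-protein family, had 9.98, 9.68 and 9.48 in AFT024+KLS and 7.00, 6.28 and 6.76 in BFC012+KLS (difference 3.03, adjusted p = 1.07e-05). Igfbp6 (2.27) and the adaptor Irs1 (1.09) were also higher, whereas Igfbp2 had 5.49, 5.80 and 5.66 in AFT024+KLS and 7.73, 7.62 and 6.93 in BFC012+KLS and was lower (difference -1.78). The receptor Igf1r (-0.68) and Igfbp4 (-0.75) were lower. Of 44 other growth factors and receptors 6 were higher and 3 lower, median -0.01, beside 6.09% higher and 5.52% lower over all genes. The lymphangiogenic factor Vegfd had 10.40, 10.60 and 10.15 in AFT024+KLS and 7.47, 8.12 and 7.87 in BFC012+KLS and was higher by 2.56 (SE 0.46, adjusted p = 0.00443). The neuregulin receptor gene Erbb3 had 4.91, 4.83 and 4.90 in AFT024+KLS and 8.47, 7.91 and 7.37 in BFC012+KLS and was lower (difference -3.04, SE 0.22, adjusted p = 1.56e-05). The receptor Fgfr2 was lower (-1.79) and Fgfr1 higher (1.03).

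In the TGF-beta and BMP list 6 of 48 were higher and 6 lower, median -0.06. The TGF-beta-induced matrix protein Tgfbi was the largest, with 8.90, 9.02 and 8.73 in AFT024+KLS and 6.23, 5.90 and 6.14 in BFC012+KLS (difference 2.79, adjusted p = 7.85e-05). The BMP receptor Bmpr1b (-1.68), the latent TGF-beta binding protein Ltbp4 (-1.27) and the co-receptor endoglin (Eng, -0.83) were lower. Wnt ligands and receptors had 1 higher and 3 lower of 33, Lgr4 (0.99) on one side and Fzd4 (-1.28), Ror1 (-1.15) and Fzd7 (-0.64) on the other. Without replicate 1 these counts were 0 and 4. The shares over all genes with all arrays were 6.09% higher and 5.52% lower.

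Matrix genes were higher in AFT024+KLS more often than they were lower. Of 32 genes of interstitial collagens and their enzymes 9 were higher and 2 lower, with a median of 0.26. Basement membrane genes had 6 higher and 0 lower of 27, median 0.09, and proteoglycans and matricellular proteins 13 higher and 4 lower of 68, median 0.08. Leaving out replicate 1 moved these counts by at most 1, and the basement membrane median to 0.04.

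Col12a1, which decorates collagen fibrils, had 9.24, 9.27 and 8.93 in AFT024+KLS and 6.01, 6.63 and 6.12 in BFC012+KLS (difference 2.89, SE 0.39, adjusted p = 0.000766). Col6a3, a chain of the beaded collagen VI filaments, had 9.69, 9.65 and 9.07 in AFT024+KLS and 6.88, 6.52 and 6.90 in BFC012+KLS (difference 2.70, SE 0.31). Both groups were tight, and no array of one line reached the other. The procollagen enhancer Pcolce2 (2.33), the collagen hydroxylase P4ha2 (1.97), Col8a1 (1.71) and Col5a2 (1.09) were higher, while the related hydroxylase P4ha3 (-0.92) and Col11a1 (-0.54) were lower. The abundant fibril chain Col1a1 had 8.47, 8.83 and 8.39 in AFT024+KLS and 7.83, 7.87 and 7.80 in BFC012+KLS without overlap, yet did not pass (difference 0.73, adjusted p = 0.0572), and fibronectin (Fn1) differed by -0.19 (adjusted p = 0.76). The test estimated the spread over all 12 sorted arrays. For Col1a1 the standard deviation was 0.23 in AFT024+KLS and 0.04 in BFC012+KLS, but 0.37 in AFT024-KLS and 0.43 in BFC012-KLS.

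Among basement membrane genes the laminin chains Lamc1 (1.02) and Lamb1 (0.73) and the collagen IV chains Col4a6 (1.04), Col4a1 (0.55) and Col4a2 (0.49) were higher. Their receptors, the integrins, had 3 higher and 0 lower of 19, median 0.11. The laminin receptor subunit Itga6 had 7.45, 7.59 and 7.40 in AFT024+KLS and 5.39, 5.36 and 5.56 in BFC012+KLS (difference 2.04, adjusted p = 0.000154), and the fibronectin receptor subunit Itga5 had 7.85, 8.55 and 8.21 in AFT024+KLS and 6.18, 6.21 and 6.39 in BFC012+KLS (difference 1.94, adjusted p = 0.000231). Neither overlapped between the lines.

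Small proteoglycans split. Dcn and Lum (-2.29), both collagen-binding, were lower in AFT024+KLS, and biglycan (Bgn, 0.97) and Prelp (1.71) were higher. Prelp had 8.94, 7.64 and 6.94 in AFT024+KLS, with replicate 1 highest, against 5.81, 5.90 and 6.68 in BFC012+KLS, and without replicate 1 it no longer passed (1.16, adjusted p = 0.0849). Ecm1, a secreted matrix protein, had 9.72, 10.06 and 9.76 in AFT024+KLS and 7.42, 7.76 and 7.70 in BFC012+KLS (difference 2.22, SE 0.18). The hyaluronan synthase Has2 was higher by 1.95 but ranged over 8.60, 7.64 and 6.74 in AFT024+KLS and did not pass without replicate 1 (adjusted p = 0.0877). Efemp1 (1.78) was higher as well.

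Of 41 matrix proteases and inhibitors 7 were higher and 4 lower, median 0.07. The gelatinase Mmp2 had 8.55, 9.08 and 8.76 in AFT024+KLS and 5.57, 5.84 and 6.16 in BFC012+KLS, a 7.68-fold difference (2.94, SE 0.36, adjusted p = 0.00046). Its activator Mmp14 was higher by 0.70 and the urokinase gene Plau by 2.06. Lower were Timp4, Adamts9 (-2.38), which cleaves proteoglycans, and the membrane protease Mmp16 (-2.15). Timp4 averaged 5.09 in AFT024+KLS, below the array median, against 9.33 in BFC012+KLS.

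Adhesion and guidance genes that passed went in both directions. Of 46 cadherins and other adhesion genes 9 were higher and 7 lower, median -0.01. Beside Adgrl2 and Tenm3, P-cadherin (Cdh3, -1.42) and the melanoma adhesion molecule Mcam (-1.32) were lower and the protocadherin Pcdh7 (2.41) and the cadherin Cdh18 (1.95) higher. Of 45 guidance genes 4 were higher and 4 lower, median -0.05, where all genes gave 6.09% higher and 5.52% lower. The neuropilins, co-receptors of semaphorins and VEGF, went opposite ways: Nrp2 had 7.73, 8.27 and 8.16 in AFT024+KLS and 5.96, 5.70 and 6.29 in BFC012+KLS (difference 2.07, adjusted p = 4e-05). Nrp1 had 8.71, 7.99 and 7.60 in AFT024+KLS and 10.01, 10.22 and 10.25 in BFC012+KLS (difference -2.06, adjusted p = 0.00128). The semaphorins Sema3a (-2.28) and Sema3c (-1.63), neuropilin ligands, were lower. Slit2 had 5.50, 9.15 and 9.07 in AFT024+KLS and 5.08, 4.75 and 4.67 in BFC012+KLS, so that replicate 1 lay close to BFC012, and its difference was 3.07 with replicate 1 and 4.28 without it.

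Fat-storage genes that passed with all arrays were higher in AFT024+KLS. Of 34 adipocyte genes 9 were higher and 0 lower, with 25 not passing and a median of 0.15. Without replicate 1, in which 7 of them lay at least 2-fold above replicates 2 and 3, 10 were higher and 1 lower (angiotensinogen, Agt, -0.77), and the median was 0.04. The fatty acid binding protein Fabp4 had 10.41, 9.89 and 9.89 in AFT024+KLS and 6.28, 7.15 and 7.50 in BFC012+KLS (difference 3.09, SE 0.28, adjusted p = 6.23e-05). The adipocyte master regulator Pparg had 9.43, 9.60 and 9.44 in AFT024+KLS and 7.92, 8.02 and 8.15 in BFC012+KLS (difference 1.46, SE 0.20, adjusted p = 0.00094). Lpl, which releases fatty acids from lipoproteins, had 9.85, 8.51 and 8.66 in AFT024+KLS and 4.54, 4.41 and 4.42 in BFC012+KLS. All 3 genes separated the lines in every array, and the lipid droplet coats Plin2 (1.29) and Plin4 (1.07) were higher as well. Ebf1, which acts in both fat and B cell development, had 9.63, 8.56 and 8.44 in AFT024+KLS and 4.07, 3.91 and 4.51 in BFC012+KLS.

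Lysosomal and phagocytosis genes had 9 of 26 higher and 0 lower, with a median of 0.48. Gpnmb, a lysosomal glycoprotein, had 7.62, 7.57 and 7.48 in AFT024+KLS and 4.97, 5.06 and 5.31 in BFC012+KLS (difference 2.45, adjusted p = 1.87e-06). The cathepsin Ctsz (2.25), the protease Lgmn (1.21), the bridging protein Mfge8 (1.03) and the cholesterol carrier Npc2 (0.90) followed. Cd68, also a macrophage marker, had 7.26, 8.43 and 8.63 in AFT024+KLS and 6.97, 6.80 and 6.98 in BFC012+KLS (difference 1.19, adjusted p = 0.0386). Ptprc stayed near background in both groups, and of 43 myeloid genes Cd68 and Alox5ap (0.98) passed, 0 were lower and the median was -0.03.

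Glycolytic and hypoxia-response genes had 12 of 38 higher and 3 lower, median 0.63. Without replicate 1 the counts were 21 and 4 and the median 0.85. The mitophagy gene Bnip3 had 10.13, 10.62 and 10.18 in AFT024+KLS and 7.88, 8.44 and 8.63 in BFC012+KLS (difference 1.99, adjusted p = 0.0064). The phosphofructokinase Pfkp had 7.68, 8.81 and 8.35 in AFT024+KLS and 6.38, 6.25 and 6.63 in BFC012+KLS (difference 1.86, adjusted p = 0.00377). The glucose transporter Slc2a1 had 7.92, 10.17 and 9.62 in AFT024+KLS and 7.56, 7.71 and 7.97 in BFC012+KLS, so that replicate 1 sat among the BFC012 arrays. The oxygen sensor Egln3 (1.95) and Ndrg1 (1.58) were higher, whereas the carbonic anhydrase Car9 was lower (-1.47), with 5.17, 5.33 and 5.69 in AFT024+KLS and 6.76, 6.49 and 7.36 in BFC012+KLS. These hypoxia targets did not all go one way.

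Of 30 genes of the unfolded protein and integrated stress response 6 were higher and 1 lower, median 0.34, and without replicate 1 11 and 0. The stress-induced regulator Nupr1 had 9.55, 9.92 and 9.93 in AFT024+KLS and 7.53, 7.73 and 7.58 in BFC012+KLS (difference 2.19, adjusted p = 1.25e-05), and Ddit3 was higher by 1.26. Of 37 retinoid and prostaglandin genes 7 were higher and 2 lower, median 0.07. The inducible cyclooxygenase Ptgs2 had 8.69, 10.11 and 10.32 in AFT024+KLS and 7.04, 7.67 and 7.79 in BFC012+KLS (difference 2.20, adjusted p = 0.0034). The prostaglandin synthase Ptges (1.05) and the prostaglandin transporter Slco2a1 (3.14) were higher too. Of the retinaldehyde dehydrogenase family, Aldh1a7 was higher (3.58) and Aldh1a1 lower (-1.41).

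Genes of contraction and of the SRF and YAP regulators had 8 of 38 higher and 4 lower, median 0.09. The matricellular YAP target Ccn1 was higher (1.49), whereas the myosin light chain Myl9 had 6.41, 6.20 and 6.35 in AFT024+KLS and 9.51, 9.03 and 8.59 in BFC012+KLS and was lower (difference -2.73). Cell cycle genes had 0 of 51 higher and 2 lower, Pcna (-0.32) and Tyms (-0.83), although the list's median was -0.34. Without replicate 1, 1 was higher and 5 were lower.

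Genes of cell cycle inhibitors went in both directions. Of 27 p53 target and senescence genes 5 were higher and 3 lower, median 0.32. Cdkn2a, which encodes the inhibitors p16 and Arf, had 7.87, 8.25 and 8.23 in AFT024+KLS and 7.13, 7.19 and 6.85 in BFC012+KLS (difference 1.06, adjusted p = 0.00181), and its neighbour Cdkn2b was higher by 1.07. Cdkn1b, which encodes the inhibitor p27, had 8.78, 7.85 and 7.70 in AFT024+KLS and 9.47, 9.63 and 9.41 in BFC012+KLS (difference -1.39, adjusted p = 0.0049), and Cdkn2c was lower (-1.61). Replicate 1 was the AFT024+KLS array nearest BFC012+KLS for Cdkn2a, Cdkn1b and Cdkn2c and the farthest for Cdkn2b. The proapoptotic p53 target Pmaip1 was higher by 0.99. Of 34 immediate-early and heat-shock genes 4 were higher and 0 lower, median 0.25, with the zinc finger factor Klf6 at 10.34, 9.69 and 9.62 in AFT024+KLS and 8.20, 8.51 and 8.29 in BFC012+KLS (difference 1.55) and the small heat-shock protein Hspb1 higher by 1.15. Without replicate 1, 7 of the list were higher and 0 lower, with a median of 0.19.

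**Figure D2:**
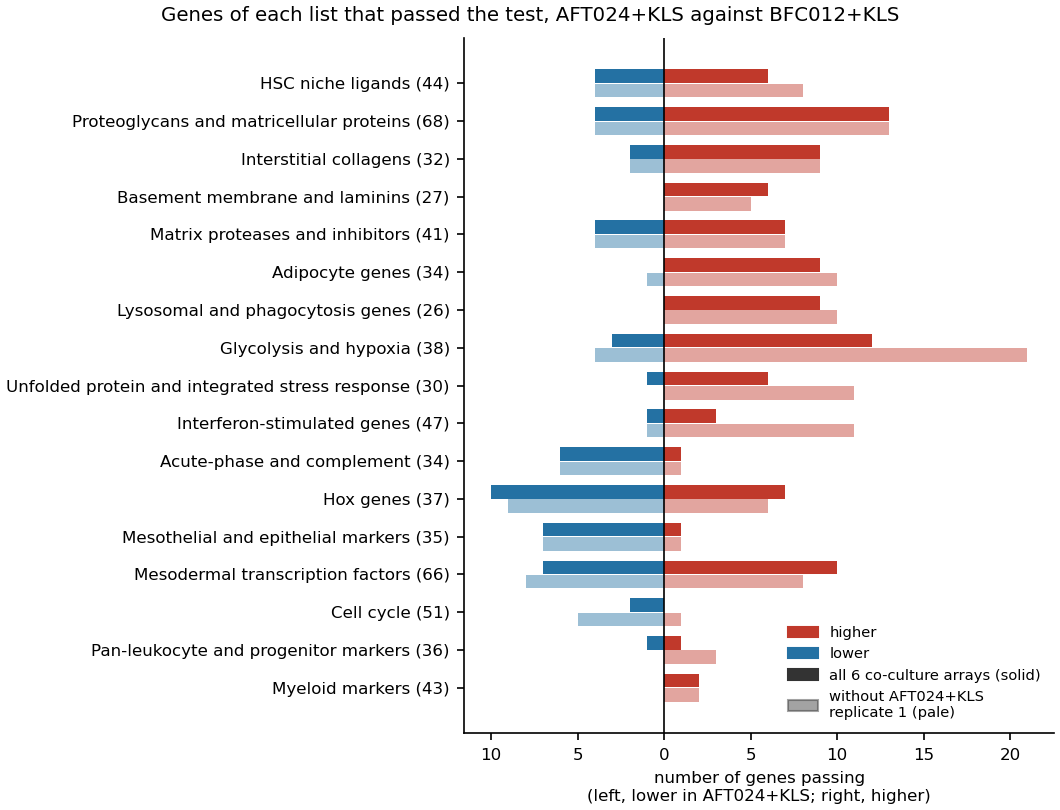
Number of genes of each list (measured members in brackets) that passed at an adjusted p under 0.05, higher in AFT024+KLS to the right in red and lower to the left in blue. Solid bars use all 6 co-culture arrays and pale bars leave out AFT024+KLS replicate 1. Glycolysis, stress and interferon bars lengthen on the right without replicate 1, and the acute-phase bars stay at 1 and 6.

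Acute-phase genes that passed were lower in AFT024+KLS with 1 exception. Of 34 acute-phase and complement genes 1 was higher and 6 were lower, also without replicate 1 (where Orm3 passed in place of Orm1), although the list's median of -0.10 lay near that of all genes. Lcn2, which binds bacterial siderophores, had 5.31, 6.77 and 6.65 in AFT024+KLS and 8.85, 9.68 and 9.48 in BFC012+KLS (adjusted p = 0.000169). Haptoglobin (Hp), which binds free hemoglobin, had 6.49, 6.68 and 6.13 in AFT024+KLS and 8.12, 9.03 and 8.72 in BFC012+KLS (difference -2.19, adjusted p = 0.000161). The lipopolysaccharide binding protein Lbp had 6.03, 6.24 and 5.80 in AFT024+KLS and 7.30, 8.20 and 8.59 in BFC012+KLS (difference -2.01, adjusted p = 0.000724). No array of AFT024+KLS reached the BFC012+KLS range in any of these genes. Orosomucoid Orm1 (-0.77) and the metalloreductase Steap4 (-0.64) were lower by less, and Orm1 did not pass without replicate 1 (adjusted p = 0.102). The complement receptor C3ar1 was the higher member (1.38, adjusted p = 0.0448).

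Without KLS cells these genes were closer between the lines. Lcn2 had 5.21, 5.22 and 5.29 in AFT024-KLS and 5.33, 5.30 and 5.27 in BFC012-KLS, and Hp had 4.33, 4.94 and 4.76 in AFT024-KLS and 5.05, 4.85 and 5.03 in BFC012-KLS. Saa3 had 4.80, 4.52 and 5.14 in AFT024-KLS and 4.73, 6.95 and 7.34 in BFC012-KLS, so that BFC012-KLS replicates 2 and 3 lay above AFT024-KLS and replicate 1 did not. None of the 3 passed between the lines without KLS cells (adjusted p = 0.945, 0.514 and 0.14). Without replicate 1 of all 4 groups the Saa3 difference without KLS cells was -2.32 and passed (adjusted p = 1.92e-05), while those of Lcn2 (-0.03) and Hp (-0.09) did not (adjusted p = 0.887 and 0.804). The difference between the line differences with and without KLS cells was -4.44 for Saa3 (adjusted p = 0.11), -3.03 for Lcn2 (adjusted p = 0.0632) and -1.89 for Hp (adjusted p = 0.0971), which did not pass. Without replicate 1 of all 4 groups the difference between the line differences passed for all 3 (-3.27, -2.84 and -2.38, adjusted p = 0.000353, 3.1e-05 and 0.00114). This alternative was chosen after seeing the data. It removed replicate 1 of AFT024+KLS, AFT024-KLS and BFC012-KLS, the arrays that deviated most, and so the spread they add. Its p-values therefore cannot decide whether these line differences depend on KLS cells.

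Promoters of the acute-phase genes are shown because their transcription is known to depend on C/EBP factors. The window runs from 250 bases before to 50 after the gene start in RefSeq (build GRCm38.p6), and capitals mark matches to TTGCNNAA, a C/EBP-type motif, on either strand. Of 32851 RefSeq promoters 10.8% held this motif, and of 27 promoters of the acute-phase list 12 (44.4%) held it. The Saa3 window is chr7:46715627-46715926 and the Lcn2 window is chr2:32387690-32387989, both on the minus strand. A match describes the letters only.
Saa3: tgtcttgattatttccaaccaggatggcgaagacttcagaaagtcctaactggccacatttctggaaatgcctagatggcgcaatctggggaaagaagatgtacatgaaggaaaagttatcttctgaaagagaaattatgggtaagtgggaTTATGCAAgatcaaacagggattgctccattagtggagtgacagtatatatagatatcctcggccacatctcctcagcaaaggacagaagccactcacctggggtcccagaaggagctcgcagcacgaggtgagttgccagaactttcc
Lcn2: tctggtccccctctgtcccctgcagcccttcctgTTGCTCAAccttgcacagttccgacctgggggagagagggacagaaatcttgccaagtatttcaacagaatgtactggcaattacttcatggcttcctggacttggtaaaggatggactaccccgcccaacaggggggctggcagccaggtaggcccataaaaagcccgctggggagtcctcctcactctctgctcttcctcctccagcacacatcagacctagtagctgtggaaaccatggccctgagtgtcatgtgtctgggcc

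Other inflammatory genes did not follow the acute-phase genes. Of 54 chemokines, cytokines and NF-kB response genes 6 were higher and 5 lower, median -0.05, beside 6.09% higher and 5.52% lower over all genes. The neutrophil chemokine Cxcl5 had 5.15, 7.61 and 7.20 in AFT024+KLS and 4.08, 3.81 and 4.08 in BFC012+KLS (difference 2.66, adjusted p = 0.00394). Ccl5, an attractant of T cells and monocytes, had 7.22, 9.91 and 9.69 in AFT024+KLS and 6.94, 6.77 and 6.83 in BFC012+KLS. Replicate 1 was the lowest AFT024+KLS array for both and lay close to BFC012+KLS for Ccl5 (difference 2.10 with it and 2.96 without it). The NF-kB inhibitor Tnfaip3 had 7.00, 6.72 and 6.68 in AFT024+KLS and 7.28, 8.13 and 8.31 in BFC012+KLS and was lower (difference -1.10, adjusted p = 0.0093). Without KLS cells its difference was -0.04, but the difference between these line differences did not pass. Myd88, the adaptor of Toll-like receptors, was lower (difference -0.62).

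**Figure D3:**
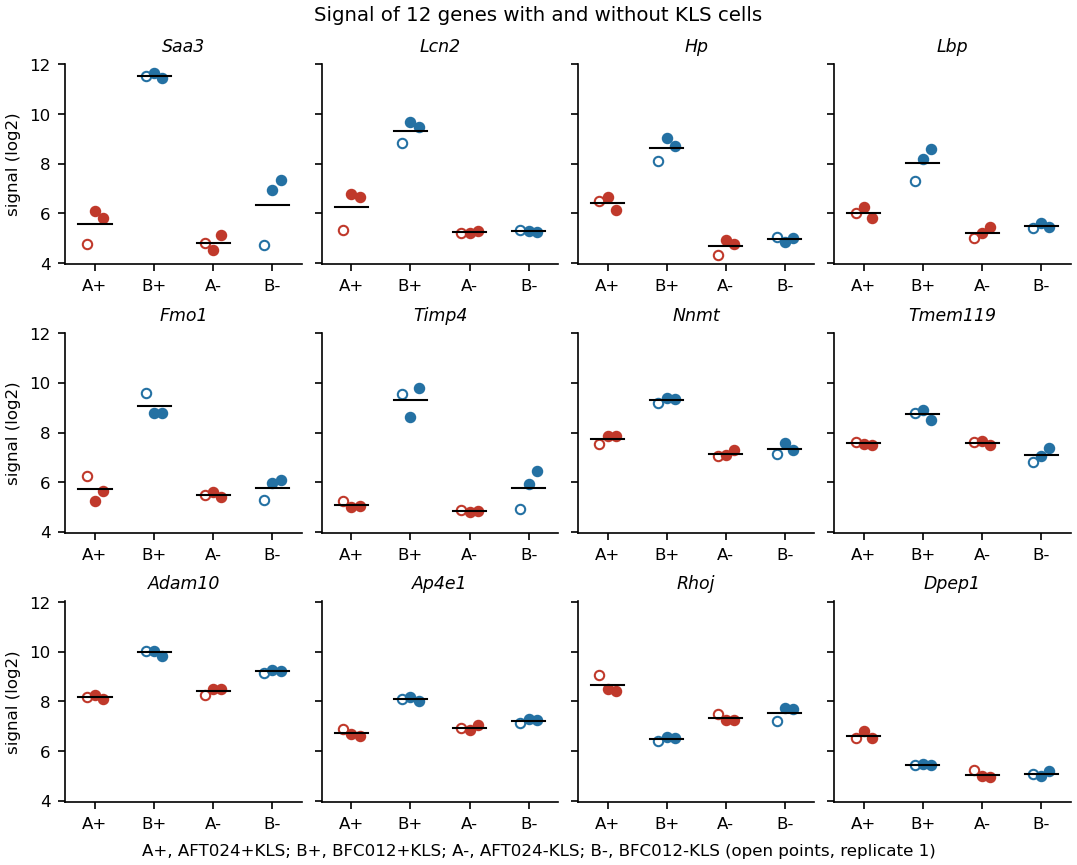
Log2 signal (y axis) of 12 genes in the 4 sorted groups, A+ for AFT024+KLS, B+ for BFC012+KLS, A- for AFT024-KLS and B- for BFC012-KLS. Points are arrays (replicate 1 open) and lines are group means. Saa3, Lcn2, Hp and Lbp are high in BFC012+KLS, and Rhoj and Dpep1 are high in AFT024+KLS.

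The line difference depended on the presence of KLS cells in 8 genes (0.0401% of 19938), 2 higher (0.01%) and 6 lower (0.0301%), by the test of the difference between the line differences. Rhoj had 9.05, 8.50 and 8.42 in AFT024+KLS and 6.39, 6.55 and 6.54 in BFC012+KLS, and 7.49, 7.26 and 7.25 in AFT024-KLS against 7.23, 7.73 and 7.68 in BFC012-KLS. The line difference was thus 2.16 with KLS cells and -0.21 without them, and these differed by 2.37 (SE 0.25, adjusted p = 0.0217). The dipeptidase gene Dpep1 was the other gene with a positive value.

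Fmo1 had 6.25, 5.24 and 5.66 in AFT024+KLS and 9.60, 8.81 and 8.79 in BFC012+KLS, and 5.49, 5.61 and 5.39 in AFT024-KLS against 5.28, 5.96 and 6.09 in BFC012-KLS. Its line difference was -3.35 with KLS cells and -0.28 without them, and BFC012+KLS was the group that stood out. Nnmt, which methylates nicotinamide, had 7.55, 7.87 and 7.86 in AFT024+KLS and 9.21, 9.41 and 9.36 in BFC012+KLS, and the bone-related membrane gene Tmem119 had 7.62, 7.55 and 7.51 in AFT024+KLS and 8.79, 8.92 and 8.52 in BFC012+KLS. Adam10, a sheddase that cleaves Notch receptors and other surface proteins, had 8.19, 8.24 and 8.11 in AFT024+KLS and 10.04, 10.04 and 9.85 in BFC012+KLS, with 8.25, 8.51 and 8.52 in AFT024-KLS and 9.16, 9.28 and 9.23 in BFC012-KLS. For Adam10 the lines differed in both conditions, by -1.79 with and -0.80 without KLS cells. The count of 8 was sensitive to single arrays, at 33 (0.166%) without AFT024+KLS replicate 1 and 0 without replicate 2 of AFT024+KLS or of BFC012+KLS. It was also 0 without replicate 2 or 3 of AFT024-KLS or replicate 2 of BFC012-KLS, and 46 without BFC012-KLS replicate 1. Without replicate 1 of all 4 groups, an alternative chosen after seeing the data, it was 589 (2.95%). With the replicate number as a block it was 0.

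Much of what separated the lines with KLS cells also separated them without. Of 1214 genes higher in AFT024+KLS 494 (40.7%) were called higher without KLS cells, which is 70.7% of the 699 higher calls (3.51%) there, and 0 were called lower. Of 1100 lower genes 435 (39.5%, and 57.2% of the 760 lower calls, 3.81%, without KLS cells) were called lower and 1 was called higher. In the confluent cultures, normalized separately, 744 (61.3%) of the higher and 556 (50.5%) of the lower genes were called in the same direction, and 5 and 10 in the opposite one. These comparisons use different arrays. Those with and without KLS cells share 1 estimate of spread per gene, so their calls are not independent. The comparison without KLS cells called 1459 genes (7.32%), and the confluent one called 3904 (19.6%), 2202 higher (11%) and 1702 lower (8.54%).

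Developmental patterning genes separated the lines by cluster. The Hox genes encode position along the body axis and lie in 4 clusters. In the Hoxc cluster 7 of 9 measured genes were higher in AFT024+KLS and 0 lower, with a median difference of 0.99. In the Hoxa cluster 8 of 10 were lower and 0 higher, median -1.06. The Hoxb cluster had 2 of 9 lower and the Hoxd cluster 0 of 9 in either direction, with medians of -0.22 and -0.04. Hoxc8 had 9.14, 7.96 and 7.87 in AFT024+KLS and 5.16, 5.04 and 5.16 in BFC012+KLS (difference 3.20, adjusted p = 6.8e-05), and replicate 1 was the highest array. Hoxa2 had 4.80, 4.61 and 4.67 in AFT024+KLS and 7.10, 7.04 and 6.86 in BFC012+KLS (difference -2.31, adjusted p = 1.87e-06). Hoxc6 (2.80), Hoxa5 (-2.10) and Hoxa11 (-1.96) followed the same division.

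Of 66 mesodermal transcription factors 10 were higher and 7 lower, median 0.05. The forkhead factor Foxc2 had 7.47, 8.17 and 7.78 in AFT024+KLS and 5.31, 4.92 and 4.76 in BFC012+KLS (difference 2.81), and Foxd1 was higher by 2.64. Foxf1, a factor of visceral mesoderm, had 5.86, 5.84 and 5.83 in AFT024+KLS and 8.54, 8.45 and 8.44 in BFC012+KLS (difference -2.63, adjusted p = 1.3e-05). Gata6 (-2.49) and Gata4 (-1.01), which act in visceral mesoderm and endoderm, were lower.

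Mesothelium is the lining of the body cavities and covers the liver. Of 35 mesothelial and epithelial markers 1 was higher and 7 were lower, with and without replicate 1, although the median was -0.09. The mesothelial factor Wt1 had 6.05, 5.90 and 5.87 in AFT024+KLS and 6.79, 7.31 and 7.83 in BFC012+KLS (difference -1.37, adjusted p = 0.0012). The uroplakin Upk1b had 4.45, 5.19 and 4.56 in AFT024+KLS and 7.02, 7.59 and 8.17 in BFC012+KLS (difference -2.86, adjusted p = 0.00058). Gpm6a, Vnn1 (-2.45), Bnc1 (-1.83), Upk3b (-1.47) and Cdh3 were lower as well, and the keratin Krt8 was the higher member (0.54). Mesothelin (Msln), a surface marker of mesothelium, did not pass. It had 5.37, 7.14 and 7.41 in AFT024+KLS and 6.34, 5.99 and 6.49 in BFC012+KLS (difference 0.37, adjusted p = 0.721, and 1.00, adjusted p = 0.114, without replicate 1). In the confluent cultures Msln was higher in AFT024 by 2.30 (adjusted p = 0.00162). Of 33 imprinted genes 6 were higher and 3 lower, median 0.01. The cyclin-dependent kinase inhibitor Cdkn1c was higher (1.26) and necdin (Ndn) lower (-1.71).

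The calls were unevenly spread over the chromosomes, looked at after the values of Xist and the Hox clusters were seen. On the X chromosome 122 of 739 measured genes (16.5%) were higher in AFT024+KLS and 13 (1.76%) lower. Over the 19 autosomes 5.72% of 19106 genes were higher and 5.68% lower. Of the 122 X-linked genes 44 differed at least 2-fold, 82 were also called higher without KLS cells and 100 in the confluent cultures. Among autosomes chromosome 15 had 115 genes higher (15.4%) and 8 lower (1.07%), and chromosome 1 had 133 higher (11.9%) and 27 lower (2.41%). Chromosome 18 had 14 higher (2.97%) and 61 lower (13%), chromosome 19 had 19 higher (2.81%) and 76 lower (11.3%), and chromosome 6 had 39 higher (3.55%) and 121 lower (11%). The Hoxc cluster lies on chromosome 15 and the Hoxa cluster on chromosome 6. Among genes with a mean signal above the median, the median difference was 0.34 on the X chromosome and 0.27 on chromosome 15, against -0.21 on chromosome 18. Without AFT024+KLS replicate 1 these medians were 0.41, 0.18 and -0.20. Xist separated the same arrays without overlap, and its part in the X-linked differences was not tested. In a list of sex chromosome genes 4 were measured, of which 1 was higher, 0 were lower and 3 did not pass. The median difference of that list was 0.01, and only 1 of its measured genes lay above the first quartile. The sex of the lines was not tested. What underlies the uneven spread was not tested.

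**Figure D4:**
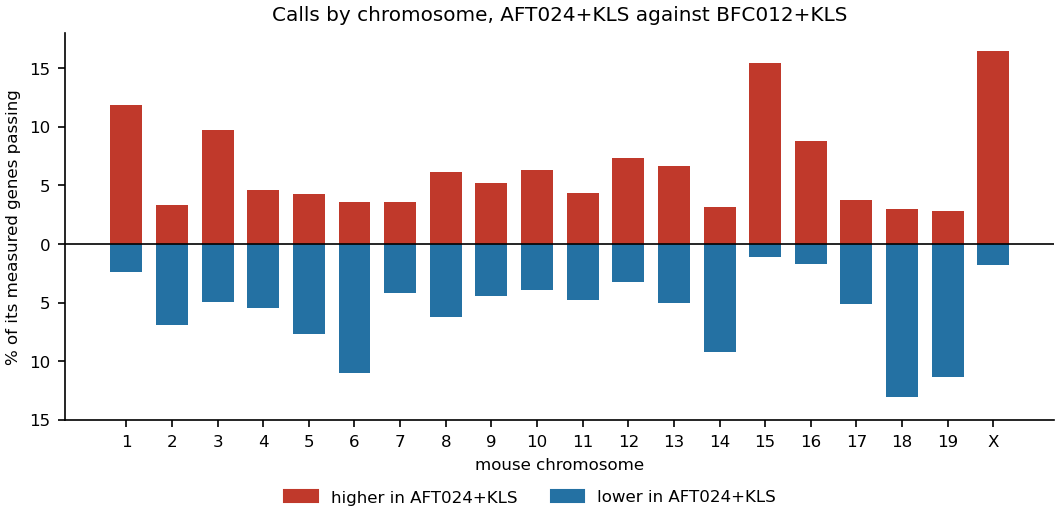
Percentage of the measured genes of each mouse chromosome (x axis) that passed at an adjusted p under 0.05, higher in AFT024+KLS upward in red and lower downward in blue. The X chromosome reaches 16.5% upward and chromosome 15 reaches 15.4%, and chromosome 18 reaches 13% downward.

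AFT024+KLS replicate 1 differed from replicates 2 and 3 in named groups of genes. Far above them were the lipid binding protein Fabp7 (9.58, 5.48 and 5.27 in replicates 1, 2 and 3), the matrix protein Sparcl1 (10.13, 6.25 and 5.84) and angiopoietin Angpt1 (7.26, 3.40 and 3.18), the ligand of the receptor Tie2 on stem cells and endothelium. In BFC012+KLS, Fabp7 had 4.77, 4.91 and 5.04, Sparcl1 4.47, 4.77 and 4.84 and Angpt1 3.43, 3.43 and 3.41, so replicate 1 was above all other co-culture arrays. The line difference of Angpt1 was 1.19 with replicate 1 and -0.13 without it, and passed in neither (adjusted p = 0.413 and 0.61). Adam23, Mlf1, Plxdc2, Scn7a and Aspn were the others among the 8 highest, by 3.10 to 3.57 over the mean of replicates 2 and 3. Far below were butyrylcholinesterase Bche (4.07, 8.65 and 8.41), the cornified envelope gene Sprr1a (6.56, 11.00 and 10.39), the chemokine Cxcl10 (5.61, 9.65 and 9.62) and Ppef1 (4.27, 7.94 and 8.35), with Rtp4, Brinp3, Ddx60 and Slit2 completing the 8 lowest. For Bche replicate 1 fell within the range of the BFC012+KLS arrays (3.91, 4.12 and 4.00), and for Cxcl10 it fell below them (6.21, 6.12 and 6.31). The line differences of Bche (3.03, adjusted p = 0.0572) and Cxcl10 (2.08, adjusted p = 0.143) did not pass with replicate 1. Without it they were 4.52 and 3.42 and passed (adjusted p = 3.02e-06 and 5.39e-06). Sparcl1 (1.35) and Mlf1 (-1.67) also passed only without it.

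Of the 44 lists examined, not all of them described here, interferon-stimulated genes had the largest median shift in replicate 1 (-1.33). Of 47 measured genes 31 lay at least 2-fold below the mean of replicates 2 and 3 and 0 at least 2-fold above. The median of the list was 5.65 in replicate 1 and 7.32 and 7.16 in replicates 2 and 3, against 5.75, 5.91 and 5.80 in BFC012+KLS. In 25 genes replicates 2 and 3 averaged at least 2-fold above BFC012+KLS, and in all 25 replicate 1 lay nearer BFC012+KLS than its own group. The list's counts therefore turned on this array. With it 3 were higher and 1 lower with a median of 0.68, and without it 11 higher and 1 lower with a median of 1.14. In AFT024-KLS the array medians of the list were 5.58, 7.38 and 7.34, against 5.04, 5.49 and 5.50 in BFC012-KLS, where replicate 1 was also the low array. Next came the unfolded protein and stress list, with a median shift of -0.80 and 11 of 30 genes at least 2-fold below, and cholesterol and fatty acid synthesis, with -0.49 and 6 of 31 genes below. In confluent AFT024 cultures 23 of the interferon genes were higher than in BFC012 and 0 lower.

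Rsad2, an antiviral enzyme, had 5.16, 7.93 and 7.42 in AFT024+KLS and 4.84, 4.98 and 4.88 in BFC012+KLS (difference 1.94, adjusted p = 0.0473, and 2.78, adjusted p = 0.000159, without replicate 1). The RNA sensor Ifih1 had 6.38, 8.09 and 7.73 in AFT024+KLS and 5.36, 5.62 and 5.73 in BFC012+KLS (difference 1.83, adjusted p = 0.0197). Ifit1, which binds viral RNA, had 5.43, 8.77 and 8.66 in AFT024+KLS and 6.23, 5.96 and 5.98 in BFC012+KLS, and its difference of 1.57 did not pass (adjusted p = 0.336) but passed without replicate 1 (2.66, adjusted p = 0.0363). Oasl1 was higher (0.91) and the factor Irf1 lower (-0.63). In replicate 1, Rsad2 and Ifit1 lay within 1 unit of BFC012+KLS.

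Promoters of 3 of these genes are shown for the element through which interferon acts. Capitals mark matches to GAAANNGAAA, an interferon response-type motif, on either strand, in the same window and build, credited to RefSeq. Of all 32851 promoters 3.44% held it, of 41 promoters of the interferon list 18 (43.9%) and of 27 acute-phase promoters 1 (3.7%). The windows are chr19:34640639-34640938 (plus strand), chr5:92348840-92349139 (minus strand) and chr12:26456403-26456702 (minus strand).
Ifit1: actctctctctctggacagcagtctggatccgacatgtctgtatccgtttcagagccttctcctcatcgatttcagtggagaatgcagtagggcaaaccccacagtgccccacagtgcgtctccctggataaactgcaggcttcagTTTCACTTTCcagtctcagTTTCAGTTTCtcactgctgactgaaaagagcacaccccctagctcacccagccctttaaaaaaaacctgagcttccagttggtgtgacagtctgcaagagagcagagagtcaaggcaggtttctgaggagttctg
Cxcl10: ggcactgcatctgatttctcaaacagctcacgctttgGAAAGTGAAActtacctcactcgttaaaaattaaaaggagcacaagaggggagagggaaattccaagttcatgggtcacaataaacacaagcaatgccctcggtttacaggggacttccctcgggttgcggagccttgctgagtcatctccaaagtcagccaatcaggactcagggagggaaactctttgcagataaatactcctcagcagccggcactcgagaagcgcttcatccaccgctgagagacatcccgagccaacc
Rsad2: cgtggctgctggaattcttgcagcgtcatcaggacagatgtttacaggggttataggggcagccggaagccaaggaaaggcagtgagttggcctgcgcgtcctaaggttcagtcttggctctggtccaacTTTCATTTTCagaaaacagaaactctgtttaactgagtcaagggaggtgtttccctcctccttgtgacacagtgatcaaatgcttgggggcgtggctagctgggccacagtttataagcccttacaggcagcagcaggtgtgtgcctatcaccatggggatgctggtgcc

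Replicate 1 also departed from its group chromosome by chromosome. Of its genes with a mean signal above the median on chromosome 13, 80.7% lay above the mean of replicates 2 and 3 after centring, with a median deviation of 0.32, and on chromosome 15, 75% did, with a median of 0.18. On chromosomes 1 and 8 the medians were -0.15 and -0.14. Medians beyond 0.1 occurred on 5 chromosomes in this array, on at most 2 in any other co-culture array and on 0 in replicate 1 of AFT024-KLS and of BFC012-KLS. When each AFT024 array was set against the BFC012 arrays of its condition, the chromosome medians of replicate 1 fell outside the range of the other 8 AFT024 arrays on 15 of 20 chromosomes. These medians were not centred, and the same count was not made for the other arrays. Some margins were small, as on chromosome 16 (0.1711 against at most 0.1705). Other arrays were extreme too, as AFT024-KLS replicate 2 was the lowest on chromosome 19 (-0.27). On chromosome 13 the median of AFT024+KLS replicate 1 was 0.26, against -0.12 to 0.05 in the other arrays, and on chromosome 15 it was 0.38, against 0.12 to 0.23. On the X chromosome it was 0.24, against 0.36 to 0.53. Xist itself was at 9.97 in this array, close to the 10.45 and 10.14 of replicates 2 and 3. In this array Xist and Slc38a4 stayed near the other AFT024+KLS arrays, whereas Bche and Brinp3 did not. Of the 215 genes that separated the lines, 72 lay nearer BFC012 in it. The cause was not tested.

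**Figure D5:**
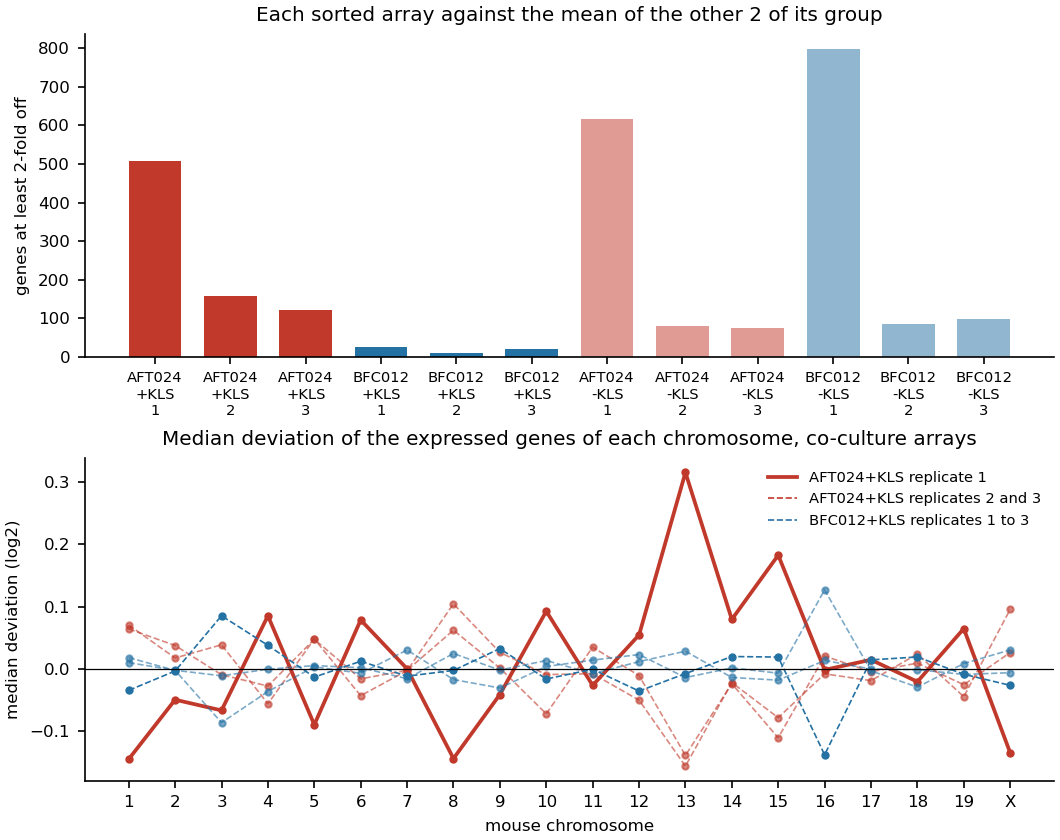
Upper panel, number of genes at least 2-fold from the mean of the other arrays of the group, for each sorted array (red, AFT024; blue, BFC012; pale, without KLS cells). Lower panel, median log2 deviation of the expressed genes of each chromosome in the co-culture arrays. AFT024+KLS replicate 1 has 507 genes off, and its line peaks at 0.32 on chromosome 13 and 0.18 on chromosome 15.

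Transcripts of other cell types were examined beside these results. Of 36 leukocyte and progenitor genes 1 was higher and 1 lower, Arhgdib (1.55) and Coro1a (-0.26). Without replicate 1, 3 were higher and 0 lower, Arhgdib (1.72), the adaptor Fyb (1.57) and the blood stem cell factor Runx1 (0.61). Arhgdib was also higher without KLS cells (2.02, adjusted p = 0.000671). Of 12 erythroid genes 0 passed (1 without AFT024+KLS replicate 1), and of 23 endothelial genes Eng alone. In the hepatocyte and stellate list 4 of 26 were higher and 3 lower, median -0.04, and without replicate 1 5 and 5. Transferrin (Trf), a plasma protein of hepatocytes, had 5.94, 5.55 and 5.49 in AFT024+KLS and 7.26, 8.34 and 8.97 in BFC012+KLS (difference -2.53, adjusted p = 0.00792).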

How the data were processed

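Sorted stroma was measured on Affymetrix mouse gene arrays. The authors deposited log2 signals per probe set, and RMA and Partek are the tools named in the submitters' processing notes; settings and versions are not given in the sources used here. Of 35556 probe sets 21789 name 1 gene, giving 19938 genes; for 999 genes with several the one with the highest mean was used. A group-means model over the 12 sorted arrays was fitted with limma 3.58.1 (R 4.3.3, Python 3.11.15 and matplotlib 3.10.9 for figures), with Benjamini-Hochberg adjustment over all genes and a threshold of 0.05; confluent arrays, normalized in another set, had a model of their own. Tested on simulated data, 80% of 2-fold and 98% of 4-fold changes in the co-culture comparison were recovered, with 11 false among 189 calls. For the difference of line differences 61% and 94% were recovered, with 11 false among 166 calls. The simulation drew independent noise with 1 spread per gene and held no deviating arrays. It therefore checks the code and does not show the power or the false calls in these data. Depth has no meaning for arrays; their number limits the precision. Same-numbered arrays deviated together without KLS cells (r = 0.67, 0.52 and 0.47), but so did replicates 2 and 3 across numbers (0.50 and 0.49), so that replicate 1 stood against the other two; in co-culture they did so less (0.02, 0.14 and 0.01); the pairing comes from the replicate numbers in the labels. Genes named are the 12 largest differences each way with groups that do not overlap, and all genes passing the difference of line differences. The 8 genes highest and lowest in AFT024+KLS replicate 1 are named too. Of each list described, up to 6 largest passing members and members whose role is described are named. Unnamed transcripts were left out. Members and lists were chosen with earlier results of these data known.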

Additional observations from a re-analysis of the deposited data

Results flagged for a closer look

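In 8 genes the AFT024 minus BFC012 difference with KLS cells differed from that without them (limma, Benjamini-Hochberg adjustment over 19938 genes). Rhoj was at 2.37 (adjusted p = 0.0217) and Dpep1 at 1.20 (0.0316), so for these the line difference was more positive with KLS cells. It was more negative with KLS cells for the monooxygenase Fmo1 at -3.07 (adjusted p = 0.0367), Tmem119 at -1.67 (0.0316), Nnmt at -1.39 (0.0367), Tdpoz8 at -1.30 (0.0447), the adaptor subunit Ap4e1 at -1.10 (0.0367) and Adam10 at -0.999 (0.0367). All 8 passed without AFT024+KLS replicate 1 too, and none did with the replicate block. Tdpoz8 lay near background, averaging 3.17 in AFT024+KLS and 4.68 in BFC012+KLS, and below the first quartile of 4.63 in both lines without KLS cells. Set against that quartile, its line difference with KLS cells was -0.05 and not the measured -1.51, so its size is uncertain.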

How the results depend on the processing

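The co-culture count of 2314 was 4386 with array weights and 4737 without replicate 1 of all 4 groups, an alternative chosen after seeing the data. Leaving out single arrays gave 1381 (without BFC012+KLS replicate 1) to 2732 (without AFT024+KLS replicate 1). Without KLS cells the count of 1459 was 4360 with array weights, 3852 without replicates 1, and 749 (without AFT024-KLS replicate 3) to 2241 (without BFC012-KLS replicate 1) over single arrays. The 8 differences of line differences were 196 with array weights, 5 with a trended robust variance, 0 with the replicate block (1565 genes had an unadjusted p under 0.05 without it), 589 without replicates 1, and 0 to 46 over single arrays. With the replicate block the co-culture count was 2587 and that without KLS cells 1603. With only the 6 co-culture arrays in the fit the co-culture count was 2758. In that fit 3 of 10 named genes that had not passed did so, and 10 of 156 that had passed did not. Of the genes named for a line difference or a difference of line differences, none that passed reversed its direction in any alternative that tested it. Of 10 named that did not pass, Angpt1 ranged over single arrays between -0.13 (without AFT024+KLS replicate 1) and 1.91 (without AFT024+KLS replicate 3) and was -0.12 without replicates 1. Msln ranged between -0.018 (without AFT024+KLS replicate 3) and 1.00 (without AFT024+KLS replicate 1). Adam23 and Plxdc2, named for their level in AFT024+KLS replicate 1, were at -0.32 and -0.13 without it and at 0.87 and 0.95 with it, and passed in neither. Of 156 named genes passing in co-culture, 125 to 156 kept their call where the alternative tested all of them; 31 lost it without BFC012+KLS replicate 1, 30 without AFT024+KLS replicate 2 and 8 without AFT024+KLS replicate 1 (Coro1a, Cxcl12, Has2, Irf1, Lamb1, Lgr4, Orm1 and Prelp). Low signals near background limit what 3 arrays per group can show.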
